A study of Drosophila melanogaster with 17 samples.

Results

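The midgut transcriptome of Drosophila melanogaster flies labelled Lam-RNAi was set against that of young control flies of the same age, 5 days. Lam encodes the fly's B-type lamin, and RNA interference against it is the treatment that defines the Lam-RNAi group. The samples were chosen by their titles: 2 Lam-RNAi and 2 young midgut libraries, 4 of the 17 libraries of the series. The other libraries came from fat body, whole gut and old midgut, the last from untreated flies of 50 days. Old fat body came from flies of 50 days and old whole gut from flies of 40 days. Young fat body, Lam-RNAi fat body and young whole gut came from flies of 5 days. Each midgut library was made from poly-A RNA of dissected adult midguts, and the values are reads per gene. The young flies carry no treatment, and the series calls its young controls wildtype. The labels give neither the line that drove the interference, nor the tissue in which it was driven, nor the sex, nor how many guts were pooled. A difference between the groups is therefore a difference between libraries so labelled, in which interference, genetic background and dissection cannot be told apart. The comparison asks how the midgut of flies with lamin-B interference differs from that of control flies of equal age.

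The B-type lamin forms, with lamin C and inner nuclear membrane proteins, the meshwork beneath the nuclear envelope. The fly midgut is an epithelium of absorptive enterocytes and hormone-secreting enteroendocrine cells, renewed by intestinal stem cells and wrapped in visceral muscle. It digests food with secreted proteases, glucosidases and lysozymes. It meets bacteria through the IMD pathway, in which peptidoglycan receptors activate the NF-kB factor Relish, and Relish in turn drives antimicrobial peptide genes together with amidases and inhibitors that restrain the pathway. The fat body, the fly's counterpart of liver and adipose tissue, makes the same peptides for the blood.

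The young midgut libraries held 34162931 and 36216068 reads and the Lam-RNAi libraries 50996316 and 60154934. Levels are given as CPM, a gene's reads scaled to a common library total, replicate 1 first. Across the 6 midgut libraries the first principal component took 87.6% of the variance. It placed the young libraries at -82.2 and -86.2, the Lam-RNAi libraries at 40.9 and 37.7 and the old libraries at 42.8 and 46.9. The second component, 7.48% of the variance, separated Lam-RNAi from old midgut. The young midgut libraries thus stood apart from every other midgut library, and each result below rests on them.

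**Figure D1:**
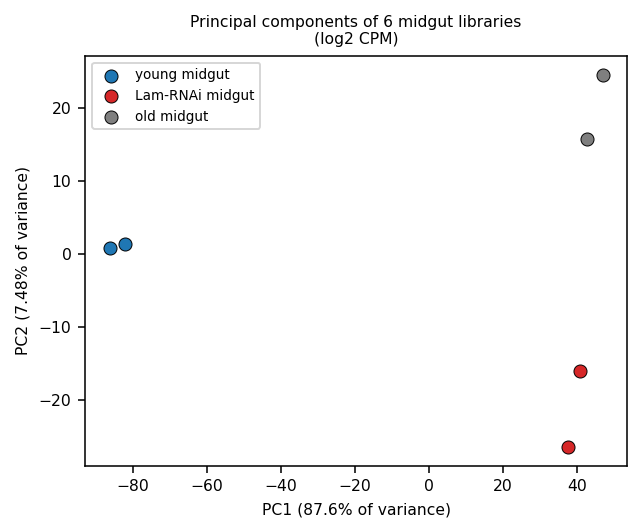
Principal components of log2 CPM in the 6 midgut libraries, with each point 1 library, PC1 on the horizontal and PC2 on the vertical axis and the share of variance in the axis labels. The 2 young libraries lie at -82.2 and -86.2 on PC1, and the Lam-RNAi and old libraries lie between 37.7 and 46.9.

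Markers of other tissues moved with the groups. The summed level of 13 fat body secreted and storage proteins was 5289 and 6505 CPM in young midgut and 1305 and 1356 CPM in Lam-RNAi midgut. The sum of 6 oenocyte genes, which make cuticle lipids, was 2799 and 3544 CPM in young midgut against 441.3 and 416.9 CPM. The sum of 24 muscle genes was 6603 and 7169 CPM against 3661 and 3841 CPM, and that of the hemocyte list 511.7 and 624.3 CPM against 314.3 and 346.3 CPM. None of these sums overlapped between the groups, and old midgut lay on the Lam-RNAi side in each. Young whole gut was at 5461 and 5170 CPM for the fat body list, close to young midgut, and at 868 and 859 CPM for the oenocyte list. The Malpighian tubule sum overlapped, at 536.5 and 597.0 against 587.8 and 574.3 CPM, but 8 of its 14 markers were lower and 1 higher, with a median log2 fold change of -0.79. Uro, the tubule's urate oxidase, was at 7.99 and 6.96 against 0.84 and 0.80 CPM, and the potassium channel Irk2, the marker that rose, at 85 and 110.3 against 189.3 and 192.2 CPM. The defining enterocyte genes were present in all 4 libraries: Myo31DF, a gut myosin, was at 405.6 and 458.3 CPM in young and 511.6 and 535.9 CPM in Lam-RNAi midgut, and nub, an enterocyte transcription factor, at 115.0 and 106.3 against 121.6 and 129.8 CPM. In bulk tissue, fewer cells of a type and less RNA per cell cannot be told apart. The part of these tissue markers in the results below was not tested, and their values are given beside the results they move with.

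**Figure D2:**
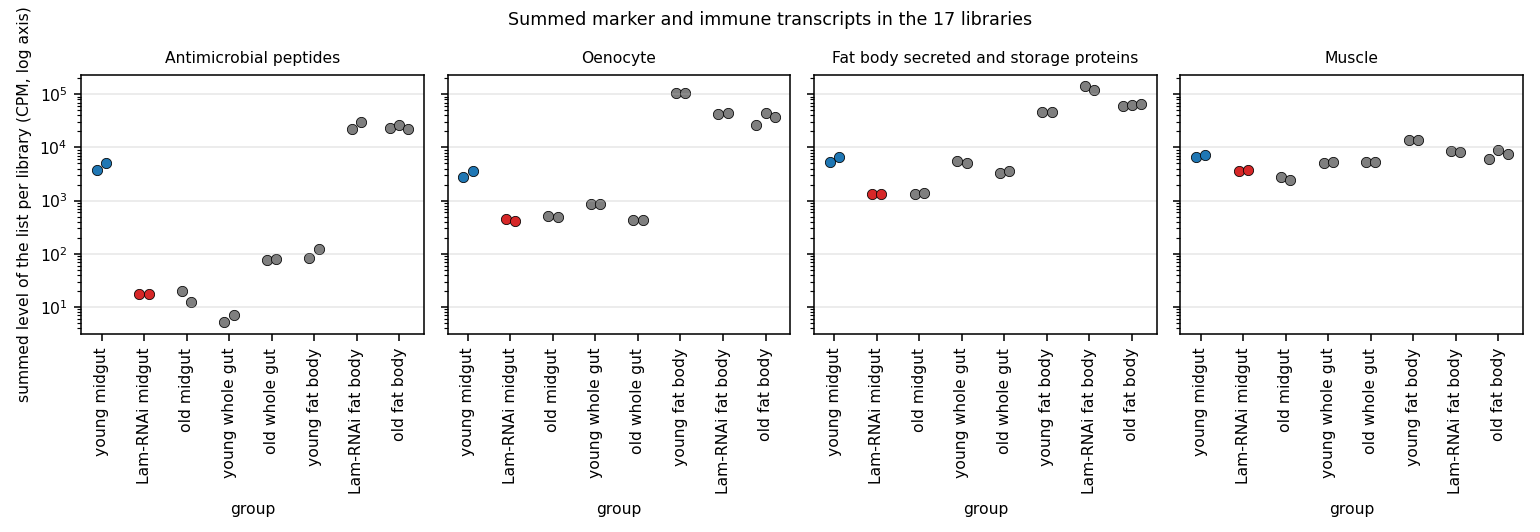
Summed CPM per library (log axis) of 4 gene lists in the 8 groups of the series, 1 point per library, with young midgut in blue and Lam-RNAi midgut in red. Antimicrobial peptides sum to 3824 and 5023 CPM in young midgut and below 21 CPM in Lam-RNAi midgut, old midgut and young whole gut.

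Lam itself was reported first, since it is the gene that the interference targets. The labels do not give the tissue of interference, so its midgut level cannot check them. Its level was 28.9 and 32.1 CPM in young midgut and 32.0 and 30.4 CPM in Lam-RNAi midgut, so the groups overlapped. The log2 fold change of Lam-RNAi against young was -0.11 (SE 0.07, 95% interval -0.25 to 0.03, adjusted p = 0.173, edgeR's quasi-likelihood test with Benjamini-Hochberg adjustment over all genes). The files place Lam on chromosome 2L from 5542527 to 5546642, on a genome build not given in the sources used here. In fat body the same contrast gave -1.12 (adjusted p = 0.00145), and the difference between the tissues was 1.06 (adjusted p = 0.000194). Lam transcript was thus lower in the fat body libraries labelled Lam-RNAi, while the midgut interval excludes a fall larger than 0.25 on the log2 scale. With library totals alone the midgut value was 0.0345, so its sign depends on the scaling. Lam-RNAi midgut means throughout the libraries so labelled.

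The lamin partners showed small changes in either direction. Of 16 genes of the lamina, the nucleus-to-cytoskeleton linker and the nuclear envelope, 4 were higher, 4 lower and 8 not called, with a median log2 fold change of 0.03. Across all 10220 genes tested, 25.5% were higher and 29.9% lower at adjusted p below 0.05, and the median was -0.01, so these counts lie near the background. LamC, the A-type lamin, was at 55.7 and 60.0 CPM in young and 89.3 and 93.4 CPM in Lam-RNAi midgut, a rise of 0.51 ± 0.06 (SE; adjusted p = 2.34e-05). It overlaps another locus, ttv. The nuclear pore subunits Nup154 and Nup107 rose by 0.44 and 0.36, and baf, which bridges chromatin and envelope, by 0.24. The envelope protein kuk fell by 0.74, from 7.90 and 9.11 to 5.22 and 5.99 CPM, and the lamin-binding LEM proteins bocksbeutel and Ote fell by 0.50 and 0.61. klar, a linker protein, fell by 0.24. The call was lost in 7 of the alternatives for Ote, in 3 each for baf and klar and in 1 for bocksbeutel. With library totals alone, and without Lam-RNAi replicate 2, 2 members were lower. Nup154, Nup107, baf, bocksbeutel and klar overlap other loci, and how reads in shared stretches or on either strand were counted is not stated.

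Over all genes, 5661 of 10220 (55.4%) differed, 2603 higher (25.5%) and 3058 lower (29.9%). The counts of list members below are to be read against these shares. With scaling by upper quartiles the split was 3467 higher and 2504 lower, and with library totals alone 3470 higher and 2183 lower. Relative to the main scaling, those settings shift the median of all genes by 0.10 and 0.14 on the log2 scale, so small changes of a list depend on the scaling. Of all genes tested, 49.0% had both Lam-RNAi libraries above both young libraries in CPM, and 28.4% had both below. By at least 2-fold, 526 genes were higher (5.15%) and 1187 lower (11.6%), and with library totals alone 700 were higher and 1070 lower. The falls reached further than the rises, with 610 genes lower and 162 higher by at least 4-fold. The spread behind each test is that between libraries of a group, which the series calls biological replicates.

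Among the gene lists, the largest falls were those of antimicrobial peptides. Single genes outside the lists fell as far. In reads scaled to totals, CG16826 fell 2610-fold and CG32185 2371-fold, against 2239-fold for the peptide gene AttA. Of 20 peptide genes listed, 18 passed the filter on low counts. Of these 17 were lower in Lam-RNAi midgut, none was higher and dro2 was not called, with a median log2 fold change of -10.02. Several were at or near 0 reads in the Lam-RNAi libraries. With the 4 genes of 3 or fewer reads over both libraries set at 3 reads, the median was -9.31. Summed over the list, the peptides took 3824 and 5023 CPM in young midgut, 17.6 and 17.6 CPM in Lam-RNAi midgut and 20.1 and 12.1 CPM in old midgut. In young whole gut the sum was 5.10 and 7.14 CPM. The young midgut libraries were thus the high ones among the gut libraries, and the Lam-RNAi libraries lay near old midgut and young whole gut. Old whole gut was at 75.6 and 79.2 CPM.

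Diptericin, a target of the IMD pathway listed as Dpt, was at 766.6 and 1019 CPM in young and 0.20 and 0.76 CPM in Lam-RNAi midgut (log2 fold change -10.93 ± 0.77, SE; adjusted p = 0.000918). Attacin-A, AttA, was at 206.7 and 274.6 CPM against 0.02 and 0.18 CPM, which is 1 and 11 reads. Drosocin, Dro, gave 21383 and 28872 reads in young midgut and 1 and 47 reads in Lam-RNAi midgut. The cecropin CecB gave 326 and 492 reads in young midgut and none in either Lam-RNAi library, which makes it at least 430.6-fold lower at a floor of 3 reads over the group. Drosomycin, Drs, best known as a target of the Toll pathway, was at 322.2 and 437.2 CPM against 0.88 and 1.5 CPM. Defensin, Def, was at 105.6 and 132.8 CPM against 0.90 and 1.10 CPM (log2 fold change -7.03 ± 0.12, SE) and metchnikowin, Mtk, at 186.8 and 265.1 CPM against 0.06 and 0.17 CPM. No peptide gene that fell overlapped between the groups.

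The same genes were high in other libraries of the series. In fat body the summed peptides were at 84.2 and 124.3 CPM in young flies, 21770 and 30090 CPM in Lam-RNAi flies and between 22460 and 26230 CPM in old flies. For the 16 called peptide genes with a level in Lam-RNAi fat body, the young midgut mean was 8.07% to 28.7% of the Lam-RNAi fat body mean, with a median of 17.5%. The remaining called peptide gene, dro3, had a mean of 10.5 CPM in young midgut and 0 CPM in Lam-RNAi fat body. Set against old fat body, the share over 17 called genes ran from 3.34% to 115.2%, with a median of 17.8%. The young midgut level of the yolk protein Yp1 was 4.47% of its Lam-RNAi fat body level. That share was 7.09% for the oenocyte P450 Cyp4g1, 7.85% for the blood cell gene Hml and 18.6% for the eggshell gene Vm26Aa. For 14 peptides, the attacins, cecropins, diptericins, Def, Dro, Mtk and Drs, the share lay between 14.06% and 20.57%, a narrow range that was picked out after the values were seen. Whether this RNA came from the midgut, from other tissue in the dissections, or from a mix-up or carry-over between samples was not tested, and the young midgut values are to be read with that limit. AttB overlaps Rpn6, AttC overlaps CG4744 and Def overlaps magu.

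The regulators of the IMD pathway moved less than its targets. Of 17 receptors, adaptors and kinases, 4 were higher and 6 lower, shares near those over all genes. With upper quartile factors or library totals 2 were lower, and without Lam-RNAi replicate 1, 3 were lower. The largest fall was that of PGRP-SD, a secreted peptidoglycan sensor, from 17.4 and 23.7 to 1.28 and 1.25 CPM (log2 fold change -4.16 ± 0.15, SE). The membrane receptor PGRP-LC fell by 0.47 and the NF-kB factor Relish, listed as Rel, by 0.24, from 189.0 and 199.3 to 171.2 and 193.0 CPM, levels that overlap between the groups. The regulatory receptor PGRP-LA rose by 0.56, and the inhibitor-of-apoptosis ligase Iap2, which activates the pathway, by 0.22. The adaptor imd was not called, at 17.3 and 19.6 against 21.1 and 21 CPM.

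The pathway's negative regulators mostly fell. Of 9 amidases and inhibitors, 7 were lower and 1 was higher, with a median log2 fold change of -2.03. pirk, an inhibitor that removes PGRP-LC from the surface, was at 135.2 and 150.8 CPM in young and 24.9 and 24.3 CPM in Lam-RNAi midgut (-2.69 ± 0.07, SE; adjusted p = 3.06e-11). The amidase PGRP-LB, which degrades peptidoglycan, was at 302.1 and 342.0 against 117.5 and 96.3 CPM, and PGRP-SC2 at 1422 and 1199 against 344.2 and 367.8 CPM. PGRP-SC1a and PGRP-SC1b fell from above 170 CPM to below 7 CPM in every library. PGRP-SB1 fell from 88.9 and 127.5 to 0.35 and 0.68 CPM. dnr1, an inhibitor of the caspase Dredd, was the member that rose, by 1.13, from 50.3 and 53.8 to 117.2 and 134.6 CPM. In fat body pirk, PGRP-LB and PGRP-SC2 had log2 fold changes of 4.99, 4.92 and 8.11 in the same contrast, and the difference between tissues passed the test for each.

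Among Toll genes, several secreted members fell. Of 24 Toll genes and Toll-responsive bomanins, 16 were lower and 3 higher. The bomanin IM1 was at 47.7 and 71.1 CPM in young and 1.51 and 1.61 CPM in Lam-RNAi midgut, and the peptide gene IM18/CG10332 fell from 264.7 and 360.1 to 0.12 and 0.38 CPM. The protease psh, which acts in the cascade that activates the Toll ligand Spätzle, fell by 4.62 and the Spätzle-processing enzyme SPE by 2.78. The adaptors Myd88 and tub rose by 0.31 and 0.29, and the NF-kB factors Dif and dl and the inhibitor cact were not called. Of 4 list members that are not high in fat body, 2 rose and none fell.

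Thioester proteins and Turandots followed the peptides. Of 8 tested, 7 were lower and none was higher, with a median of -4.32. The opsonin-like thioester protein TepI was at 239.2 and 329.2 CPM in young and 0.16 and 0.42 CPM in Lam-RNAi midgut, and the stress-induced TotA at 291.9 and 400.0 against 10.5 and 8.93 CPM. TepIV fell by 1.71, from 214.1 and 230.1 to 77 and 73.3 CPM. Each of these 8 genes is high in fat body by the ratio defined next.

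A gene was counted as high in fat body when its highest fat body group mean was at least 4 times its young whole gut mean, with 0.1 CPM added to each. Of the genes tested, 2286 met this, and 50.4% of them were lower and 16.1% higher in Lam-RNAi midgut. Among the other 7934 genes, 1906 (24.0%) were lower and 2234 (28.2%) higher, with 417 lower and 394 higher by at least 2-fold. The excess of large falls over large rises was thus 770 against 132 among genes high in fat body and close to even among the rest. This split was made after the values were seen. For 855 of the 1187 genes that fell by at least 2-fold (72.0%), young whole gut lay nearer to Lam-RNAi than to young midgut on the log scale. The same held for 157 of the 526 genes that rose by as much (29.9%). Among genes not high in fat body it held for 188 of the 417 falls and 146 of the 394 rises. The ratio uses the young whole gut mean and so favours genes low there, which ties the split to this side.

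Jonah proteases, secreted serine proteases of the gut, held the largest single rise and fall among the digestive lists. Of 17 members 12 were lower, 4 higher and 1 not called, with a median of -1.25, and none of the 17 is high in fat body. Jon74E was the largest rise in the list. It was at 9.81 and 13.0 CPM in young and 1698 and 1773 CPM in Lam-RNAi midgut, a log2 fold change of 7.11 ± 0.15 (SE; adjusted p = 3.65e-12). Old midgut had it at 1833 and 2024 CPM and young whole gut at a mean of 947.8 CPM, so young midgut was the low group. Jon66Cii went the other way, from 140.1 and 128.8 to 0.27 and 0.35 CPM, and its neighbour Jon66Ci from 746.7 and 543.3 to 10.5 and 9.36 CPM. Young whole gut had a mean of 0.59 CPM for Jon66Cii and again lay on the Lam-RNAi side.

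The other Jonah proteases changed less. Jon44E fell from 1959 and 1601 to 301.7 and 235.9 CPM, and Jon65Aii from 1047 and 1068 to 319.9 and 266.8 CPM. Jon99Cii rose from 1142 and 840.0 to 2789 and 2121 CPM and Jon99Ciii from 789.9 and 561.9 to 2089 and 1691 CPM. The near-identical copies of this family can share reads, and how such reads were assigned is not stated. The sum of all 17 was 72960 and 53220 CPM in young and 49600 and 42210 CPM in Lam-RNAi midgut. For this sum the other gut libraries of these kinds lay away from Lam-RNAi midgut. Old midgut was at 72770 and 86210 CPM and young whole gut at 113700 and 106200 CPM. Of 11 trypsins named by Greek letters, 2 were higher, 3 lower and 6 not called. deltaTry was among the largest rises, from 5.71 and 2.87 to 26.0 and 17.8 CPM (log2 fold change 2.20 ± 0.43, SE; adjusted p = 0.0178), and it has close copies and overlaps CG13202.

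**Figure D3:**
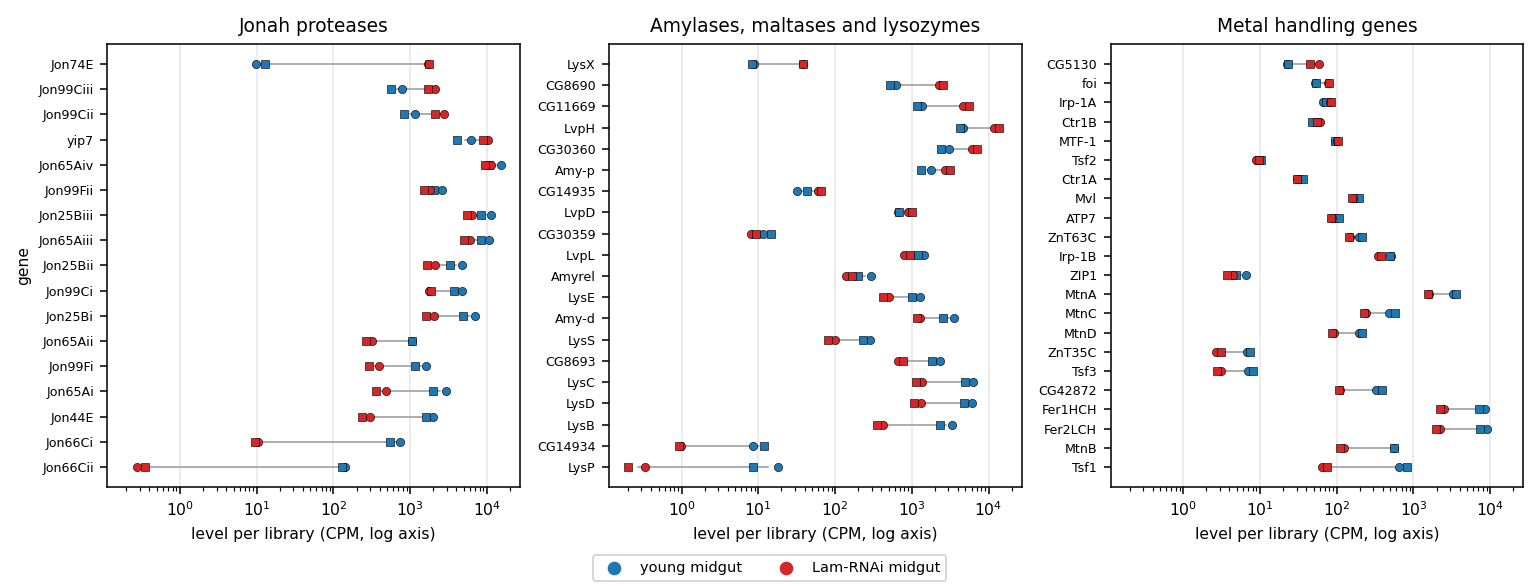
Level of each tested Jonah protease, amylase, maltase, lysozyme and metal handling gene in the 4 libraries (CPM, log axis), with young midgut in blue, Lam-RNAi midgut in red, circles for replicate 1, squares for replicate 2 and grey lines between the group means. Jon74E rises from 9.81 and 13.0 to 1698 and 1773 CPM, while most metal handling genes lie lower in Lam-RNAi midgut.

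Starch- and sugar-digesting enzymes rose in sum and lysozymes fell. Amylases and maltases summed to 19880 and 16200 CPM in young and 31480 and 36280 CPM in Lam-RNAi midgut, with 7 of 13 members higher and 5 lower. Old midgut, at 20370 and 17560 CPM, lay near young midgut, and young whole gut was lower, at 11470 and 11070 CPM. Lam-RNAi midgut was thus the high group for this sum. The maltase LvpH, which overlaps Cyp4e1, rose from 4693 and 4227 to 11890 and 13740 CPM (1.37 ± 0.15, SE), and the computed genes CG11669 and CG8690 rose by 1.88 and 1.94. The alpha-amylase genes went apart, Amy-p rising by 0.75 and Amy-d falling by 1.49, and as near-identical copies they are uncertain. In the fit of all 17 libraries, 1 member of the list was higher and 5 were lower, so the calls depend on which libraries set the spread. The alpha-glucosidase tobi, named as a target of brain insulin, was at 1611 and 1387 CPM against 7931 and 9582 CPM, a rise of 2.39. It overlaps rha, which rose by 2.33, and its fat body contrast was 9.83.

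Digestive lysozymes, which degrade bacterial cell walls eaten with food, summed to 17250 and 13220 CPM in young and 3762 and 3070 CPM in Lam-RNAi midgut. Of 7 members 6 were lower, with a median of -2.31. LysB fell from 3309 and 2318 to 423.3 and 352.9 CPM, and LysC and LysD, which overlap each other, by 2.31 and 2.36. LysX rose from 8.84 and 8.15 to 38.1 and 37.6 CPM. Young whole gut summed to 4272 and 4054 CPM, nearer to Lam-RNAi midgut.

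Metal handling genes were mostly lower. Of 22 metal handling genes 16 were lower and 2 higher, with a median of -0.64, and of the 19 that are not high in fat body 14 were lower. The ferritin subunits Fer1HCH and Fer2LCH, which store iron and overlap in the files, were at 8551 and 7097 against 2508 and 2232 CPM and at 9154 and 7256 against 2198 and 1993 CPM. The metallothionein MtnB, which binds copper, fell from 563.4 and 559.8 to 122.6 and 109.8 CPM. Transferrin, Tsf1, which is made by fat body as well, fell from 639.1 and 821.1 to 64.8 and 75.5 CPM. The zinc transporter gene foi rose by 0.43. Of 19 amino acid, peptide and sugar transporters 11 were lower and 3 higher, with a median of -0.31. The peptide transporter yin fell from 39.5 and 48.7 to 8.67 and 8.81 CPM.

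Sterol and lipid genes fell more often than they rose. Of 10 Npc2 and NPC1 sterol-transport genes 8 were lower and 2 higher, and in the fit of all 17 libraries 4 were lower. The 2 that rose were Npc2c and Npc2d. Npc2c had the largest change of the list, 6.68, from a mean of 0.2234 CPM in young to 26.16 CPM in Lam-RNAi midgut. Its young level was close to 0, so this fold is uncertain. Npc2d rose from a mean of 58.01 to 143.1 CPM. Their means were 60.38 and 290.9 CPM in old midgut and 102.0 and 227.3 CPM in young whole gut. Npc1b, needed for sterol uptake by the midgut, was at 843.5 and 647.9 CPM in young and 160.1 and 131.4 CPM in Lam-RNAi midgut (-2.51 ± 0.18, SE). Of 22 lipase and lipid uptake genes 12 were lower and 4 higher. Rfabg, which encodes the lipoprotein apolipophorin and is abundant in fat body, fell by 2.93, and ninaD, a carotenoid scavenger receptor, rose from 185.3 and 245.0 to 702.5 and 636.1 CPM. Of 20 peritrophins and mucins, which line the gut with chitin and mucus, 15 were lower and none was higher, and of the 14 that are not high in fat body 9 were lower. Their summed level did not fall, at 3598 and 3498 CPM in young and 3800 and 3592 CPM in Lam-RNAi midgut. Muc68E was at 138.6 and 175.1 against 75.5 and 67.0 CPM.

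Detoxification genes changed in either direction. Of 71 cytochrome P450s 22 were higher and 36 lower. Cyp12c1, a mitochondrial P450, rose from 23.4 and 29.8 to 166.8 and 169.4 CPM (2.52 ± 0.08, SE), and Cyp6d2 fell from 159.6 and 181.1 to 37.8 and 36.3 CPM. Cyp4g1, the hydrocarbon-making P450 of oenocytes, fell from 2076 and 2717 to 23.5 and 18.8 CPM, along with the oenocyte enzymes eloF and Fad2. Among the 53 P450s that are not high in fat body, 22 were higher and 22 lower. Of 35 glutathione transferases 18 were lower and 8 higher, and GstD9 fell by 3.61, from 323.8 and 359.8 to 31.7 and 30.2 CPM, though it overlaps GstD1. Of 17 UDP-glycosyltransferases 10 were lower and 4 higher. Ugt86Dc rose by 1.48 and Ugt86Dg fell by 2.43.

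Ribosome genes were the most uniform group that rose. Of 82 cytoplasmic ribosomal protein genes 80 were higher, with a median log2 fold change of 0.47 against -0.01 over all genes. They summed to 61280 and 69630 CPM in young, 96750 and 104500 CPM in Lam-RNAi and 80900 and 77920 CPM in old midgut. Young whole gut lay lower, at 48860 and 47990 CPM, on the side of young midgut. RpS20 was at 500.5 and 575.9 CPM in young and 968.6 and 1052 CPM in Lam-RNAi midgut (0.76 ± 0.09, SE; adjusted p = 8.71e-06), though snoRNA genes lie within it. RpS5b, a paralog expressed mainly in the germline, was the member that fell, from 3.04 and 3.23 to 0.47 and 0.32 CPM. The count was 80 higher with upper quartile and total scaling too.

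Ribosome biogenesis factors rose alongside. Of 26 members 25 were higher and none lower, with a median of 0.66. Nop60B, the pseudouridine synthase of small nucleolar particles, rose from 34.7 and 41.2 to 93 and 98.5 CPM (1.19 ± 0.07, SE) and fibrillarin, listed as Fib, from 18 and 22.2 to 41.6 and 45.1 CPM. CG8801, in the list as a nucleolar factor, rose by 1.44. Both Nop60B and Fib hold snoRNA genes. In fat body the contrast was 0.05 for Nop60B and 0.31 for Fib, and the difference between tissues passed the test for Nop60B (1.19, adjusted p = 0.00267) and not for Fib (0.70, adjusted p = 0.111). Mitochondrial ribosomal proteins did not share the rise, with 7 of 72 higher and 8 lower, and 1 higher without young replicate 1.

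**Figure D4:**
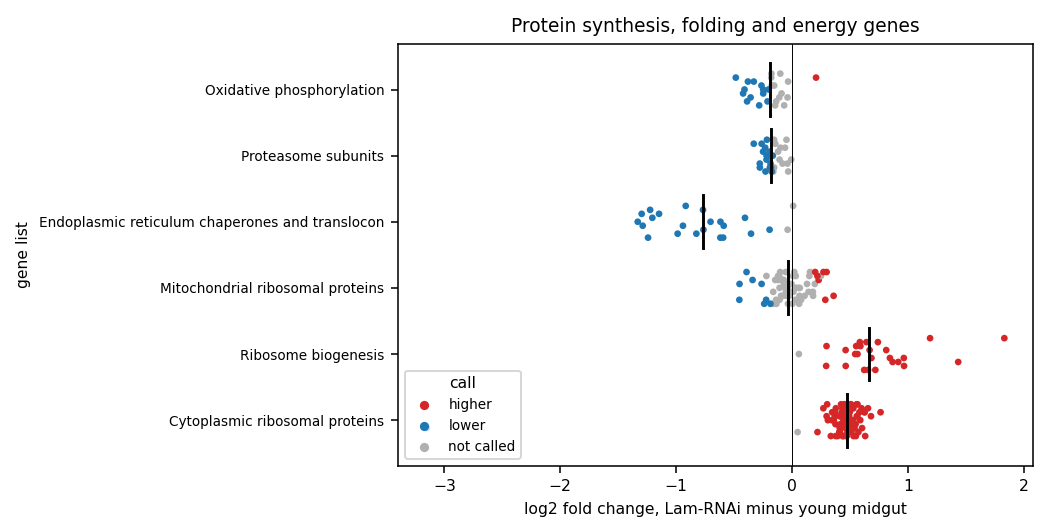
Log2 fold change, Lam-RNAi minus young midgut, of each tested member of 6 lists, with each point 1 gene, colour for the call at adjusted p below 0.05 and black bars for the list medians. Cytoplasmic ribosomal proteins and ribosome biogenesis lie at medians of 0.47 and 0.66, and endoplasmic reticulum genes at -0.77.

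Genes of the endoplasmic reticulum, where secreted proteins are made and folded, fell. Of 23 chaperone and translocon genes 21 were lower and none was higher, with a median of -0.77, and 20 of the 22 that are not high in fat body were lower. Sec61alpha, the channel through which proteins enter, was at 820.1 and 959.0 CPM in young and 407.8 and 373.5 CPM in Lam-RNAi midgut (-1.33 ± 0.09, SE; adjusted p = 8.22e-08). The chaperones Gp93 and Hsc70-3 fell by 1.15 and 0.77 and the disulfide isomerase Pdi by 0.94. The stress sensors Ire1 and PEK were not called. With library totals alone, 19 members were lower and none was higher.

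Proteasome, respiratory and proton pump genes shifted by amounts near the difference between scalings. Of 30 proteasome subunits 17 were lower and none higher, with a median of -0.18, but with library totals alone no subunit was lower and the median was -0.03. Of 26 respiratory chain genes 13 were lower and 1 higher, and 4 lower and 1 higher with library totals. Of 23 vacuolar proton pump genes 17 were lower and none higher, and 7 lower with library totals. Single libraries moved these counts too, to 4 proteasome subunits without young replicate 2, 8 without Lam-RNAi replicate 1 and 2 without Lam-RNAi replicate 2. Without young replicate 2, and likewise without Lam-RNAi replicate 2, 7 respiratory genes were lower, and without young replicate 1, 11 proton pump genes were. Among 24 genes of glycolysis and the citric acid cycle 6 were higher and 5 lower, with 2 or 3 lower when any library but young replicate 1 was left out. The shares over all genes were 25.5% higher and 29.9% lower. Phosphoglucose isomerase, Pgi, rose from 246.2 and 224.5 to 521.9 and 583.8 CPM, and citrate synthase, kdn, fell from 1296 and 1599 to 922.6 and 941.8 CPM.

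Markers of intestinal progenitors were higher, at low levels. Of 16 tested 8 were higher and 2 lower, with a median of 0.48. esg, the transcription factor that marks stem cells and enteroblasts, was at 12.2 and 10.4 CPM in young and 24.5 and 21.3 CPM in Lam-RNAi midgut (0.87 ± 0.12, SE; adjusted p = 0.000138). Sox21a, a progenitor transcription factor, was at 2.28 and 1.49 against 4.98 and 4.04 CPM, a rise of 1.11. The stem cell Notch ligand Dl was not called, at 6.41 and 7.18 against 6.92 and 6.27 CPM, and klu, an enteroblast factor, fell by 0.50. Old midgut had esg at 25.2 and 21.3 CPM and young whole gut at a mean of 28.9 CPM, so young midgut was the low group. In the fit of all 17 libraries 4 members were higher and none lower.

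Of 35 cell cycle genes 12 were lower and 3 higher, with a median of -0.31, against 29.9% lower and 25.5% higher over all genes. With library totals alone, and without young replicate 2, 7 were lower. The mitotic cyclin CycB fell from 5.65 and 6.16 to 1.47 and 1.5 CPM (-2.14 ± 0.17, SE), the mitotic kinase polo by 1.01 and the Cdc25 phosphatase stg by 1.53. The replication clamp PCNA, listed as mus209, fell by 0.70. The transcription factor E2f rose by 0.45 and the growth cyclin CycD by 0.36. Of the 14 members that are not high in fat body 5 were lower and 3 higher. The germline-linked genes osk and yl fell too, from 3.22 and 3.67 to 0.02 and 0.05 CPM and from 5.36 and 6.57 to 0.04 and 0.02 CPM.

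Signals known to drive stem cell division were mixed. The cytokine upd3, which acts through the JAK-STAT pathway, rose from 0.20 and 0.22 to 2.24 and 1.43 CPM, 7 and 8 reads against 114 and 86 (2.93 ± 0.36, SE; adjusted p = 2.22e-05). upd2 gave 2 and 0 reads against 18 and 24. The receptor dome, the kinase hop and the feedback inhibitor Socs36E were not called, and the transcription factor Stat92E fell by 0.33. Of 14 EGF receptor pathway genes 2 were higher and 5 lower, against 25.5% higher and 29.9% lower over all genes. With library totals alone 3 were higher and 2 lower. The protease rho, which releases EGF ligands, rose from 0.70 and 0.55 to 2.57 and 2.43 CPM, the ligand spi rose by 0.32, and the inhibitor sty fell from 58.7 and 75.7 to 26.6 and 24.4 CPM.

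Of 15 JNK pathway genes 5 were higher and 4 lower, near the shares over all genes. Without young replicate 2, 3 were higher, without Lam-RNAi replicate 1, 2 were lower, and with library totals 7 were higher and 1 lower. puc, the phosphatase that reports JNK activity, rose by 0.38, from 61.8 and 58.4 to 89.9 and 83.0 CPM, and Gadd45 fell by 1.16. Of 19 genes of Hippo, Wnt and BMP signalling 4 were higher and 4 lower, with 2 lower without young replicate 1 and 1 lower without Lam-RNAi replicate 1. The Hippo target ex fell by 0.71 and the BMP receptor put rose by 0.41. Of 17 insulin and nutrient genes 8 were higher and 1 lower, with a median of 0.17. The shares over all genes were 25.5% higher and 29.9% lower. The insulin receptor substrate chico rose from 29.7 and 33.6 to 58.7 and 61.5 CPM, and the insulin-like peptide Ilp6, made in fat body, fell by 1.96.

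Of 20 enteroendocrine genes 11 were higher and 5 lower, with a median of 0.28. The number higher was 7 without young replicate 2 and 7 without Lam-RNAi replicate 1, and 5 in the fit of all 17 libraries. Neuropeptide F, listed as npf, was at 13.4 and 13.3 CPM in young and 32.6 and 31.4 CPM in Lam-RNAi midgut (1.11 ± 0.08, SE; adjusted p = 1.07e-07), and sNPF at 4.10 and 5.14 against 12.5 and 12.4 CPM. Tachykinin, Tk, which overlaps Ect3, was at 65.5 and 63.5 against 114.1 and 119.4 CPM. pros, the factor that marks these cells, rose by 0.32. The peptide-processing enzymes svr and amon fell by 0.49 and 0.40.

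Regional and identity factors were split. Of 18 tested 3 were higher and 7 lower, against 25.5% higher and 29.9% lower over all genes. GATAe, the GATA factor of the gut, rose from 131.9 and 131.3 to 213.8 and 219.2 CPM (0.57 ± 0.07, SE). srp, the GATA factor of fat body and blood cells, fell from 36.7 and 44.8 to 15.1 and 15.8 CPM, and vvl fell by 1.86. The copper cell factor lab fell by 0.34. Of 9 hindgut and crop genes 6 were higher and 1 lower, and the hindgut factor byn rose from 4.57 and 6.66 to 14.7 and 17.8 CPM. The count of 6 higher is the top of its range over the alternatives, and some gave fewer. All the neuronal genes that were called rose, 4 of 10 tested, among them the calcium channel cac by 1.30. The call of para, also among them, was lost in 6 of the alternatives.

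Muscle genes fell almost throughout. Of 24 members 23 were lower and none higher, with a median of -0.89, and all 17 that are not high in fat body were lower. Mhc, the muscle myosin heavy chain, was at 1129 and 1196 CPM in young and 586.5 and 604.2 CPM in Lam-RNAi midgut (-1.11 ± 0.08, SE; adjusted p = 2.32e-07). The flight muscle gene fln gave 101 and 133 reads in young midgut and none in Lam-RNAi midgut, at least 123.2-fold lower at a floor of 3 reads over the group. Act88F, the flight muscle actin, fell from 3.45 and 5.58 to 0.12 and 0.12 CPM. Old midgut summed to 2793 and 2476 CPM over the list, below Lam-RNAi midgut.

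Heat shock and chaperone genes went in either direction. Of 22 members 11 were lower and 6 higher, while their summed level rose from 4841 and 4681 to 6805 and 6982 CPM. Hsp83, the Hsp90 chaperone, was at 700.7 and 671.6 CPM in young and 1346 and 1350 CPM in Lam-RNAi midgut, a rise of 0.82, and the constitutive chaperone Hsc70-4 rose by 0.61. Hsp26 was at 272.0 and 240.7 against 122.8 and 122.0 CPM and Hsp27 at 156.7 and 140.3 against 75.4 and 73.7 CPM. Of 20 antioxidant genes 9 were lower and 5 higher, and Keap1, the inhibitor of the oxidative stress factor, fell by 1.19. Of 20 autophagy and lysosome genes 6 were higher and 3 lower, with Atg1 up by 0.69 and Atg7 down by 0.73. Of 19 septate junction genes, which seal the epithelium, 6 were higher and 2 lower, with scrib up by 0.46. The shares over all genes, against which these counts are to be read, were 25.5% higher and 29.9% lower. Of 12 clock genes 6 were lower and 2 higher, and per fell by 0.78, from 30.4 and 32.3 to 19.3 and 21 CPM.

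**Figure D5:**
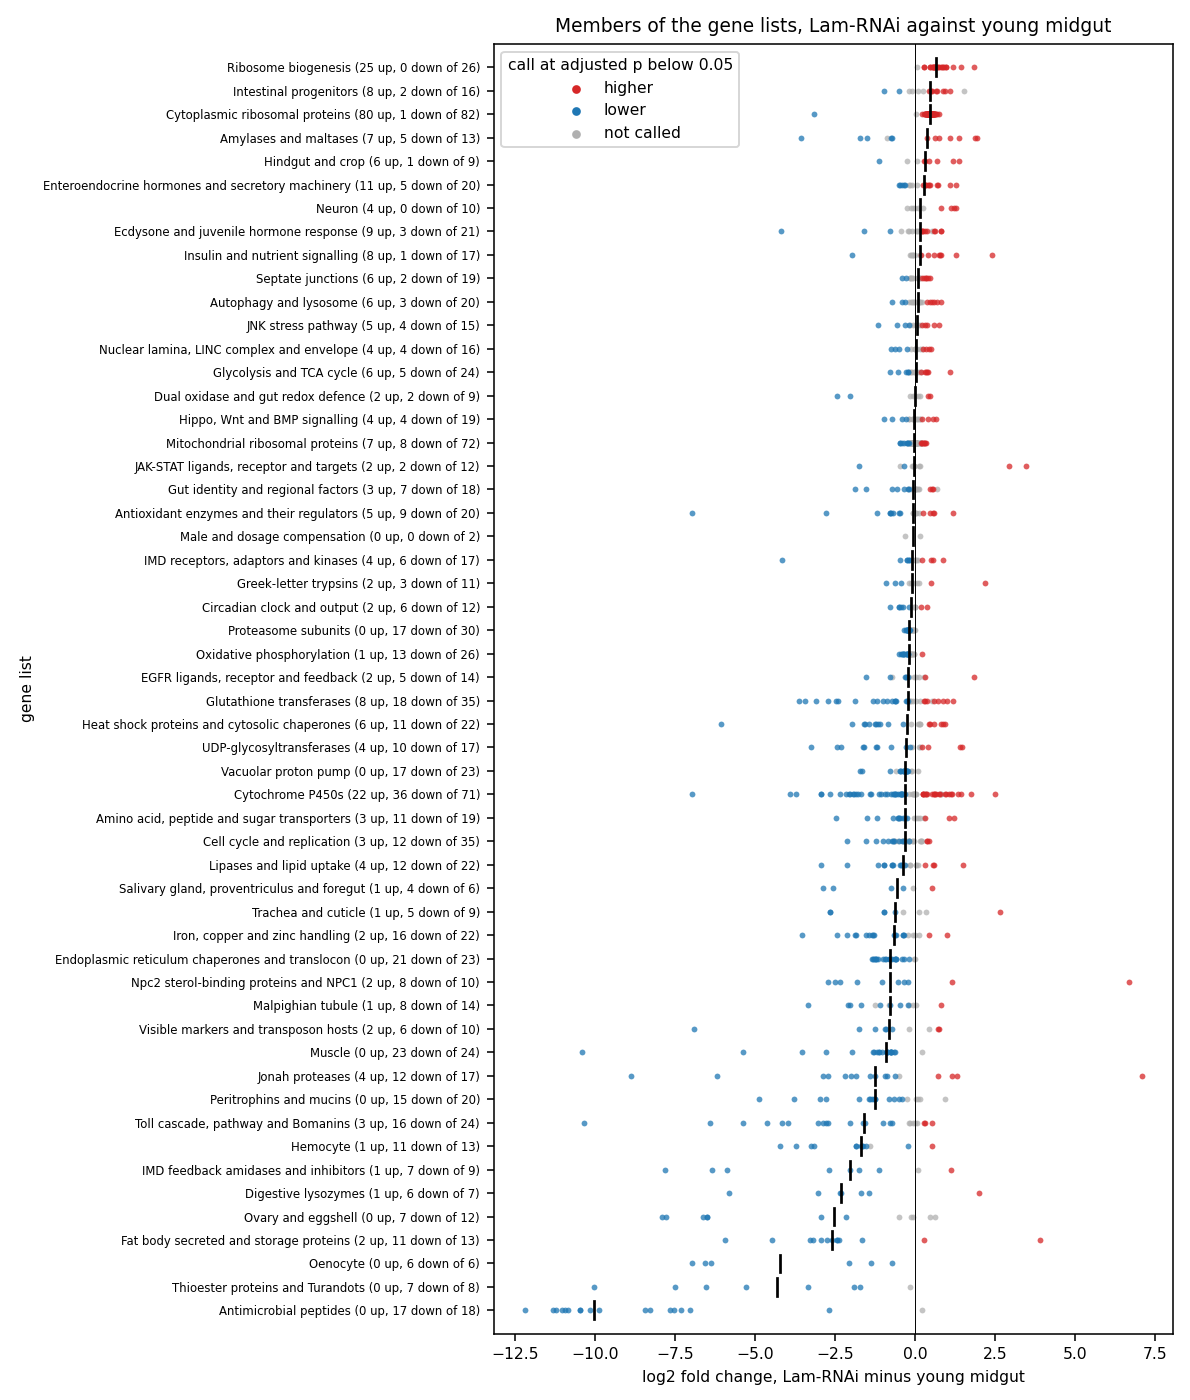
Log2 fold change, Lam-RNAi minus young midgut, of every tested member of 54 gene lists, with each point 1 gene, red for higher, blue for lower and grey for not called, black bars for the medians and the counts in the labels. Antimicrobial peptides stand at the lower end with a median of -10.02, and ribosome biogenesis at the upper end with 0.66.

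Genes outside the lists were named by size of change. The computed gene CG2772 rose from 1.55 and 1.24 to 244.1 and 268.4 CPM (7.38 ± 0.12, SE), and CG14205 from 5.09 and 5.91 to 539.2 and 393.0 CPM. Old midgut had them at 158.3 and 145.4 CPM and at 1008 and 1147 CPM. Lsp1gamma, a larval serum protein, rose from 5.80 and 7.54 to 101.5 and 121.8 CPM and was 1 of 2 fat body proteins of the list that rose, while 11 fell. lectin-28C, a C-type lectin, rose from 18 and 24.3 to 120.5 and 129.2 CPM, and aay, a phosphoserine phosphatase, from 94.7 and 105.7 to 507.0 and 456.0 CPM, though aay overlaps CG3967. smp-30, which overlaps CG3563, rose by 2.41 and Btd by 2.16.

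CG16826 fell from 569.5 and 466.8 CPM to 0 and 0.37 CPM, and CG1678 from 195.3 and 166.2 CPM to 0 and 0.18 CPM. Young whole gut held these at means of 1035 and 263.6 CPM and old midgut at 0.31 and 0 CPM and 0.19 and 0 CPM. Their fat body group means were far higher, from 2763 to 2923 CPM for CG16826 and from 692.6 to 883.6 CPM for CG1678. In old whole gut the means were 869.8 and 99.8 CPM. The genes were thus high in young midgut, in whole gut of both ages and in fat body, and whether fat body in the dissections has a part was not tested. CG32185, which overlaps Oatp74D, fell from 123.4 and 173.8 to 0.02 and 0.10 CPM, and CG17374 from 187.4 and 256.8 to 2.26 and 2.08 CPM.

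Old midgut was compared with the same young libraries, so the contrasts share their controls. Old against young midgut called 5487 genes (53.7%), with 4.25% of all genes higher and 13.1% lower by at least 2-fold. Side by side, for genes picked after their values were seen, the log2 fold change in old and in Lam-RNAi midgut was 7.35 and 7.11 for Jon74E, 2.50 and 2.52 for Cyp12c1, -2.78 and -2.69 for pirk and 0.61 and 0.57 for GATAe. It was 1.19 and 2.39 for tobi and 0.59 and 1.37 for LvpH. Lam-RNAi against old midgut, which does not compare the young libraries, called 3678 genes (36.0%), of which 213 were higher and 154 lower in Lam-RNAi midgut by at least 2-fold.

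The Lam-RNAi contrast was then compared between midgut and fat body, which share no library. The difference passed the test for 5195 of 11128 genes (46.7%), 2508 above and 2687 below the fat body contrast, and 8.65% of genes were above and 16.4% below by at least 2-fold. In fat body itself 10.5% were higher and 5.07% lower by at least 2-fold. The antimicrobial peptides went opposite ways: Dpt was -10.93 in midgut and 9.24 in fat body, and AttA -11.23 and 9.30. Ribosomal proteins named above also differed, RpS20 being 0.76 in midgut and -0.27 in fat body (difference 1.08, adjusted p = 6.34e-05). For puc, at 0.38 and 0.34, and baf, at 0.24 and 0.37, the difference did not pass the test (adjusted p = 0.813 and 0.775).

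Among the genes named above, Rel, imd, PGRP-SD, PGRP-LB, Hml, nub, cact, hop, Cyp4g1, Gp93, ex, klu, Atg1, Atg7, scrib and per also overlap another locus in the files, and their values can hold reads of that locus.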

How the data were processed

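Reads per gene were deposited by the authors as whole-number counts, 1 table per library. Per the submitters' processing notes, CASAVA 1.8, TopHat2 and edgeR were used. The genome build, the annotation and the counting of strand, shared exons and multiply mapped reads are not given in the sources used here. Of 15080 entries, those with equal position and counts were merged, leaving 14095 loci. The 29 positions with unequal counts were kept apart, and 5250 loci overlap another.

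Counts of the 6 midgut libraries were fitted with edgeR 4.0.16 in R 4.3.3, after its default expression filter and with TMM scaling, by a robust quasi-likelihood model with 3 residual degrees of freedom, and genes were called at a Benjamini-Hochberg adjusted p below 0.05. CPM divides by the library total, while fold changes use TMM factors and lie about 0.14 lower on the log2 scale than the ratio of CPM. The tissue difference was fitted on all 17 libraries. In counts simulated from the midgut libraries, 200 genes above a minimum level were changed, 50 per fold, with a common spread for all genes. Of these, 86% of genes changed 1.5-fold and 100% of those changed 2-fold were recovered, with 8 false calls over 10111 genes tested. The data hold far more changed genes and unequal spreads, so these shares check the method and are no error rate of this comparison. A count of 0 allows up to 3 reads, 0.088 and 0.083 CPM in young and 0.059 and 0.050 CPM in Lam-RNAi midgut, for counting error only. Replicate libraries correlated at 0.995 and 0.996 and differed by more than sampling noise.

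The comparison, the 54 gene lists and the rule for named genes were chosen with earlier results of these data known, and list spellings were matched to the files after they were read. Named were Lam, every called lamina gene, the 10 largest rises and falls whose groups do not overlap and whose average log2 CPM is 3 or more, 5 each among computed identifiers, and up to 4 called members with the smallest p per list. Further list members were named after their values were seen. Alternatives were other scalings, filters, DESeq2 1.42.0, limma 3.58.1, a replicate block, other libraries in the fit, and each library left out.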

Additional observations from a re-analysis of the deposited data

Results flagged for a closer look

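The effect of Lam-RNAi differed between midgut and fat body, by a test of the difference itself in edgeR with Benjamini-Hochberg adjustment, for 2508 genes above and 2687 below the fat body effect. Among Lam and the 30 genes of largest change in midgut, 27 of 31 differed, against 46.7% over all genes tested. The 30 were picked for their midgut change in the same libraries, so a difference was likely in advance and their number is no support. For a gene near 0 in fat body, such as CG2772 at means of 0.41 (young) and 0.19 CPM (Lam-RNAi), it restates the midgut change. Lam differed by 1.06 on the log2 scale. Among the named rises the midgut minus fat body log2 difference was 7.05 for Jon74E, 5.33 for Lsp1gamma, 0.80 for Cyp12c1, 2.54 for lectin-28C, 1.25 for smp-30, -7.39 for tobi and -3.49 for rha. For tobi and rha, which overlap, the fat body effect was the larger. Lsp1gamma had a mean of 94.9 CPM in young fat body with a standard deviation of 130.6 CPM. The 2 libraries of that group thus lay far apart, and its difference is to be read with that limit. Among the named falls it was -20.48 for AttA, -19.20 for Mtk, -20.14 for Dpt, -19.84 for Dro, -16.86 for DptB, -19.53 for IM18/CG10332, -18.20 for AttC, -19.79 for TepI, -18.77 for AttB and -12.55 for Jon66Cii, and apart from Jon66Cii, which had too few fat body reads for its own contrast, these genes were higher in Lam-RNAi fat body and lower in Lam-RNAi midgut. Values of this size depend on genes near 0 reads in 1 group and are no measure of an exact fold. Among computed identifiers it was 8.37 for CG2772, 4.21 for CG32444, 4.48 for CG15534, 5.23 for CG42329, -11.56 for CG16826, -20.50 for CG32185, -11.09 for CG1678, -6.79 for CG16904 and -6.61 for CG17374. Groups of 2 libraries are too small to look for a sample far from the others.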

How the results depend on the processing

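With genes high in fat body left out, a choice made after seeing the data, 1906 genes were lower in place of 3058, and 417 in place of 1187 were lower by at least 2-fold; the cause was not tested. The other counts of changed genes stayed within 1.5 times the main count in the other alternatives. All changed genes numbered 5661, between 3992 in the fit of all 17 libraries and 5971 with upper quartile factors, 5080 with DESeq2, and between 4568 and 5073 with each library left out, where the lone library is assumed to vary like the others. Replicate numbers did not pair the libraries, since deviations of equal numbers correlated at 0.01 between young and Lam-RNAi midgut, and the replicate block gave 5431. Lam, which was not called in any of them, went from -0.11 to 0.0345 on the log2 scale with library totals alone, and no other named gene reversed its direction. Counts of short lists moved by more than 1.5 times when a library was left out for several lists with small shifts. Not every such move is given beside its list. Of the named genes, 27 of 239 lost the call in the fit of all 17 libraries and 9 with library totals alone. Lists with a median shift under 0.2, such as proteasome and respiratory genes, depend on the scaling. Genes with few reads, such as upd2 and the peptides in Lam-RNAi midgut, have folds limited by depth.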
